A study of Homo sapiens with 4 samples.

Results

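The complement, coagulation and plasminogen genes described here are 39 genes of the 61806 in the deposited table, taken by gene symbol from a list of complement components, clotting factors, plasminogen activators, and their inhibitors and receptors. JJ012 (human chondrosarcoma) and 143B (human osteosarcoma) are established tumor cell lines. Both were kept detached in suspension, a state in which adherent cells normally die by anoikis, and received either no treatment or melatonin (1 mM, 72 h). Melatonin is the pineal hormone, used here at a pharmacological dose. Poly(A) RNA was sequenced from 1 library of each of the 4 conditions, so all groups share the suspension culture and none has a replicate. The columns of the table carry the name of the line, and a T after it was taken to mark the melatonin library.

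Complement is a cascade of plasma proteases that tags and lyses cells. Its classical arm starts with the proteases C1r and C1s, its alternative arm with factor B and factor D, and all arms meet at C3. Coagulation starts when tissue factor meets factor VII, and plasminogen activators later generate the plasmin that dissolves fibrin and cuts matrix. Most of these proteins come from the liver, but mesenchymal and tumor cells make many of them, and on tumor cells the urokinase system is known for its part in invasion. Nothing about protein or activity was measured here.

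Levels are given in FPKM, in which counts are divided by the exonic length of the gene and by the total of the library. A change with melatonin is the log2 of (FPKM + 1) with melatonin over (FPKM + 1) without, taken for genes that reached 1 FPKM in one or both of the libraries compared. With 1 library per condition no test across cultures exists. A gene is said to have risen or fallen when this value passed 0.58 in either direction, the fold threshold of the study. Beside it stands the log2 ratio of the counts scaled to the library total (CPM) with an exact 95% interval, which covers counting error only and has no bearing on variation between cultures.

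The libraries held between 15889564 and 19218343 counts. The labels of the lines were seen in only part of the defining genes. Of the chondrocyte markers, COL11A1 stood at 22.9 FPKM in the JJ012 control and was listed at 0 in 143B, while SOX9 stood at 15.1 FPKM in the JJ012 control and 15.5 FPKM in the 143B control. COL2A1, ACAN, COL9A1 and HAPLN1 stayed at or below 0.02 FPKM in JJ012. The osteoblast markers did not set 143B apart, with a summed level of 6.97 FPKM in the 143B control against 94.7 FPKM in the JJ012 control. RUNX2 stood at 4.28 FPKM and BGLAP at 1.44 FPKM in the 143B control, with SP7 and IBSP listed at 0, whereas SPP1 was 79.4 FPKM in the JJ012 control against 0.40 in 143B and COL1A1 was 10.9 against 0.49. For other cells that make these proteins, none of 7 hepatocyte markers reached 1 FPKM in any library (summed level between 0.06 and 0.49 FPKM). Of 7 endothelial markers between 1 and 3 did (summed between 2.56 and 22.0 FPKM), with TIE1 highest at 18.1 FPKM in the 143B control and CDH5 at most at 0.13 FPKM. Of 7 leukocyte markers up to 3 did (summed between 1.11 and 17.9 FPKM), with CD3E at 9.73 and CD79A at 3.68 FPKM in the JJ012 control and PTPRC at most at 0.14 FPKM.

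The untreated lines expressed different genes of these cascades. The complement proteases C1R and CFD, protein S (PROS1) and SERPINE2 were higher in JJ012, and tissue factor (F3), thrombomodulin (THBD), TFPI2, PLAU, PLAUR and F2RL1 were higher in 143B. Of the 39 genes, 30 reached 1 FPKM in one or both controls. Of these, 17 were higher in JJ012 and 9 were higher in 143B by the threshold, against 41.3% and 27.4% of all 16929 genes compared. Of the 1340 genes annotated as extracellular that were compared, 679 (50.7%) were higher in JJ012 and 362 in 143B. The split of the list was near that of this group and is not read as a trait of the cascades. Of all genes that passed, 60.1% were higher in JJ012 as deposited, and between 47.7% and 51.2% with TPM, TMM or median-of-ratios scaling, centring or the length trend removed. Under those settings between 16 and 20 of the listed genes were higher in JJ012 and between 9 and 11 in 143B. With TPM 35 listed genes were compared, and 30 in the others. Of all genes compared, between 29.8% and 38.4% were then higher in JJ012 and between 32.7% and 36.5% in 143B. By group, 5 of 6 complement components and 3 of 4 protease inhibitors were higher in JJ012, and 2 of 3 plasminogen activation genes and 3 of 6 anticoagulants were higher in 143B. Line and library cannot be told apart here. The highest levels in the JJ012 control were those of SERPINE2 (151 FPKM), PROS1 (64.6 FPKM) and CFD (55.9 FPKM). In the 143B control they were those of TFPI2 (66.3 FPKM), PLAUR (64.2 FPKM) and F3 (51.0 FPKM).

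After melatonin, the genes of this list that moved in JJ012 fell. Of the 25 genes tested, 12 fell (C1R, C1S, C3, C4A, CFB, CFD, F8, PROS1, SERPINA1, SERPINE2, SERPINF2 and PLAT) and none rose, with a median log2 fold change of -0.57 against 0.01 over all tested genes. Of all 15794 genes tested in JJ012, 18.6% fell and 19.6% rose, and among 11534 protein-coding genes the shares were 16.1% and 17.8%. In bulk RNA, fewer cells that express a gene and less RNA per cell cannot be told apart. The 12 falls had intervals of the log2 CPM ratio below 0, though at this depth the intervals of all 25 tested genes excluded 0, also those of small changes. Marker sums moved in JJ012 as well, without and with melatonin 38.9 and 9.76 FPKM for chondrocyte, 94.7 and 68.2 for osteoblast, 6.22 and 2.56 for endothelial and 17.9 and 9.05 for leukocyte markers, and their part in the falls was not tested. Rescaling to TPM moved the median of all JJ012 genes to 0.21, where 62.4% of all genes past the threshold were higher, against 51.4% as deposited. On that scale the filter passed more genes, 23153 of all genes and 32 of the list. Of these 32, 4 rose (C5, CD46, CD55 and TFPI2) and 12 fell, of which 9 were among those named. Of all genes so tested, 33.0% rose and 19.9% fell. C3, PROS1 and SERPINE2 no longer passed the threshold, and C4B, F12 and A2M did.

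In 143B the urokinase pair rose, among few genes of the list that moved. Of the 20 genes tested, PLAU and PLAUR rose and C3 and THBD fell, with a median log2 fold change of -0.11 against 0.03 over all tested genes. Of all 14135 genes tested in 143B, 6.09% rose and 6.65% fell, and of 10878 protein-coding genes 3.48% rose and 2.60% fell. With 2 of 20 genes in each direction, the numbers are too small to tell the list apart from all tested genes. C3 was the single gene of the list that passed the threshold in both lines, and the share of all genes that did so was not computed. In 143B, CFD and PLAT also passed it upward with a pseudocount of 0.1, with TPM or with CPM, as did PLAT with TMM (0.59). A2M passed it downward with the pseudocount of 0.1, with TPM or with CPM, and SERPINA1 with the pseudocount of 0.1 (-0.61) or TPM (-0.58).

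**Figure D1:**
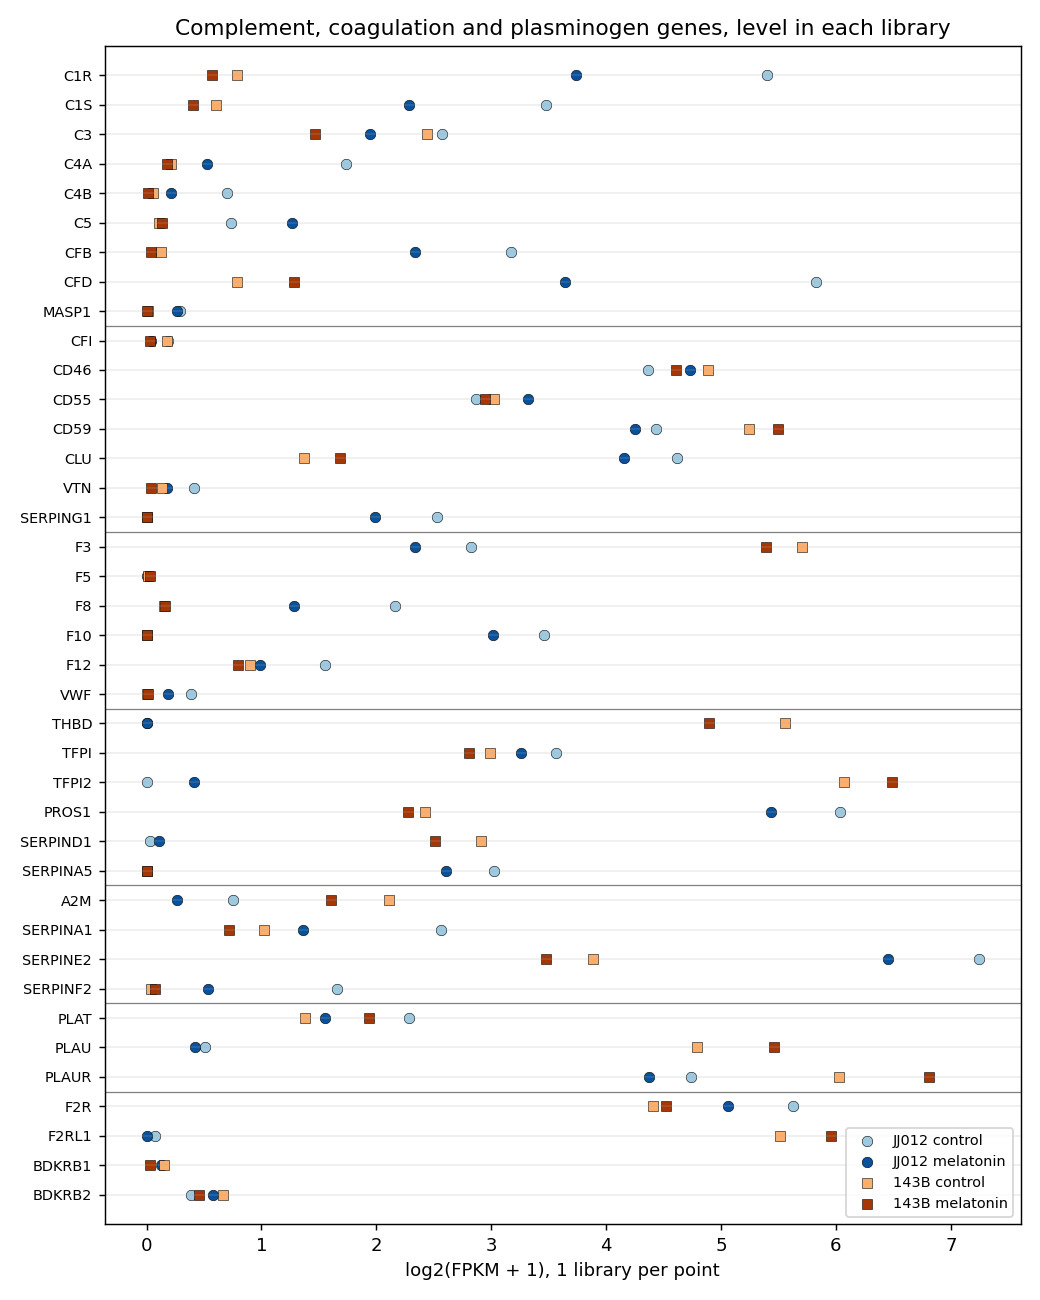
Level of each of the 39 genes as log2(FPKM + 1), with circles for the JJ012 libraries and squares for the 143B libraries, light for control and dark for melatonin, and lines between the groups of genes. CFD, C1R and PROS1 lie far to the right in JJ012, and THBD, TFPI2 and F2RL1 in 143B, where the JJ012 circles sit near 0.

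The promoters of 27 of the 39 genes were found in RefSeq (GRCh38.p14), each as 300 bases from 250 before to 50 after the first listed start. A motif of STAT factors, TTCNNNGAA on either strand, occurred in 9 of the 27 (33.3%), against 7.88% of 27305 promoters and 6.97% of protein-coding ones. The promoters that held it were those of CFB, PROS1, CD59, F10, SERPINA5, VTN, SERPIND1, F2RL1 and BDKRB1, which makes 2 of the 7 promoters of genes that fell in JJ012 (28.6%; CFB and PROS1) and 7 of the other 20 (35.0%). An AP-1 motif, TGANTCA on either strand, occurred in 3 of the 27 (11.1%), against 7.76% of all promoters and 5.71% of protein-coding ones. These were PLAUR, F3 and TFPI2, which makes 3 of the 7 promoters (42.9%) of genes higher in the 143B control. None of the 10 promoters of genes higher in the JJ012 control held it. The 250 bases before the start are shown for CFB and PROS1 with the STAT motif in capitals, and for PLAUR, F3 and TFPI2 with the AP-1 motif in capitals. They lie at chr6:31945845-31946094 (+ strand), chr3:93973897-93974146 (- strand), chr19:43670170-43670419 (- strand), chr1:94541760-94542009 (- strand) and chr7:93890754-93891003 (- strand).
CFB: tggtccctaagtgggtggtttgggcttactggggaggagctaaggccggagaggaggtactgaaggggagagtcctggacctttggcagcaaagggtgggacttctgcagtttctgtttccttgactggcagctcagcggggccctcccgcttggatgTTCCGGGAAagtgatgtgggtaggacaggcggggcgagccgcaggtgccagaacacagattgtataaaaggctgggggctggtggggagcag
PROS1: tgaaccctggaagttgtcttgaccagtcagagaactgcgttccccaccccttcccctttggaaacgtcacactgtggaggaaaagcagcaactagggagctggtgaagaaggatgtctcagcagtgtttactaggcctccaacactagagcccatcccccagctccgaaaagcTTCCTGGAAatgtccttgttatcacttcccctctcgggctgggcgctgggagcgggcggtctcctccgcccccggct
PLAUR: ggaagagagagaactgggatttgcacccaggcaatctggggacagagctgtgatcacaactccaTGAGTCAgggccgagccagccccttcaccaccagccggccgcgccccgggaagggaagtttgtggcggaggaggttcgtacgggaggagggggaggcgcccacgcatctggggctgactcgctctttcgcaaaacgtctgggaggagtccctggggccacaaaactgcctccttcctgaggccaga
F3: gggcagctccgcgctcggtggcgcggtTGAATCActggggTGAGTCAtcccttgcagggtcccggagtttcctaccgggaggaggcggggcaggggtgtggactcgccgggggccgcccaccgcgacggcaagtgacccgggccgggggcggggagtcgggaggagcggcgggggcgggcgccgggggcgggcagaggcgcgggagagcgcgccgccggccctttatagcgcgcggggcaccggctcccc
TFPI2: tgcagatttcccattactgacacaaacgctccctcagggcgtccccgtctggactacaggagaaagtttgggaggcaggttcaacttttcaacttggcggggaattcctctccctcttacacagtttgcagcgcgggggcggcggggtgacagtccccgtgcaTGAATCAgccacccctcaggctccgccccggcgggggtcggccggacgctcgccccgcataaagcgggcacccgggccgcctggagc
The first base of the motif lies at -92 in CFB and at -77 in PROS1, counted from the first listed start. The deposited table sets the bounds of CFB, PROS1 and PLAUR farther upstream, so the bases shown for them lie within those bounds. The AP-1 matches lie at -223 and -210 in F3, at -186 in PLAUR and at -87 in TFPI2. With every listed start of a gene counted, 10 of the 27 (37.0%) held the STAT motif and 4 (14.8%) the AP-1 motif. The shares of all promoters were then 9.38% and 9.37%. The split of the AP-1 motif by line was made with the first start only. Of the other 4 motifs searched on both strands, the TATA box (TATAAA) occurred in 7.41% of the 27, in 3264 of the 27305 promoters and in 9.56% of protein-coding ones. The GC box (GGGCGG) occurred in 44.4% of the 27, 44.6% of all promoters and 59.3% of protein-coding ones. For the E-box (CACGTG) these shares were 3.70%, 7.43% and 8.87%. For the hypoxia response core (ACGTG, also found within the E-box) they were 7.41%, 21.6% and 23.7%. Binding was not measured, and a match of letters is a description of the sequence.

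Among the complement proteases and components, C1R and C1S, which encode the proteases of the first complement complex, were expressed in JJ012 and lower in its melatonin library. C1R (chr12:7080214-7092540, hg38 as in the deposited table) had 41.2 FPKM in the JJ012 control and 12.4 FPKM after melatonin (4599 and 1159 counts), and 0.73 and 0.48 FPKM in 143B without and with melatonin (67 and 48 counts). It fell by 1.66 on the log2 scale, and the log2 CPM ratio was -1.74 (-1.83 to -1.64), which is 3.33-fold lower. C1S had 10.2 FPKM in the JJ012 control and 3.88 FPKM after melatonin (1619 and 520 counts), and 0.52 and 0.32 FPKM in 143B without and with melatonin (69 and 45 counts), and its log2 change in JJ012 was -1.19. The genes lie next to each other on chromosome 12, with 9.2 kb between them, and C1R overlaps C1RL on its own strand.

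CFD encodes factor D, the protease that activates the alternative arm, and it showed the largest fall of the list on the scale of FPKM + 1. CFD (chr19:859453-867884) had 55.9 FPKM in the JJ012 control and 11.4 FPKM after melatonin (1954 and 336 counts), which is a log2 change of -2.19 and a log2 CPM ratio of -2.29 (-2.46 to -2.12). In 143B it had 0.73 and 1.44 FPKM (21 and 45 counts), so its level there went the other way, at 0.50 on the log2 scale and below the threshold, and with TPM at 0.76 past it. CFD overlaps MED16 on the opposite strand.

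CFB encodes factor B, the partner of factor D. CFB (chr6:31945650-31952086) stood at 8.02 FPKM in the JJ012 control and 4.05 FPKM after melatonin (819 and 347 counts), and fell by 0.84 on the log2 scale. In 143B it was near the detection limit, with 8 counts in the control and 3 after melatonin. C3, the component on which all arms converge, was expressed in both lines. C3 (chr19:6677704-6730562) had 4.94 FPKM in the JJ012 control and 2.84 FPKM after melatonin (1099 and 531 counts), which is -0.63 on the log2 scale. In 143B it had 4.44 and 1.77 FPKM (816 and 352 counts), with a log2 change of -0.97 and a log2 CPM ratio of -1.32 (-1.51 to -1.14). The fall of C3 in JJ012 passed the threshold as deposited but not with TPM or TMM scaling.

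C4A encodes one isotype of the component cleaved by C1s, and C4B the other. C4A had 2.33 FPKM in the JJ012 control and 0.44 FPKM after melatonin (320 and 51 counts), at -1.21 on the log2 scale, and 0.16 and 0.13 FPKM in 143B without and with melatonin (18 and 16 counts). C4B stayed under 1 FPKM, with 85 and 19 counts in JJ012 and at most 4 in 143B. The genes are near-identical copies 12.1 kb apart: of the windows of 150 bases in the longest C4A transcript of GENCODE 29, 83.2% occur unchanged in C4B. The split of reads between C4A and C4B is therefore uncertain, although the ratios of both were below 0 in JJ012, at -2.40 (-2.85 to -1.97) for C4A and -1.91 (-2.71 to -1.18) for C4B. C5, which starts the lytic pathway, was the exception among the components. Its counts in JJ012 were 213 in the control and 384 after melatonin, a log2 CPM ratio of 1.10 (0.86 to 1.35). On the scale of FPKM + 1 its value of 0.54 stayed below the threshold, and with TPM it was 1.08. MASP1 had at most 56 counts.

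Of the 7 complement components tested in JJ012, 6 fell and none rose, beside falls in 18.6% of all tested genes and 38.1% of those annotated as extracellular. Summed over the 9 genes, the level was 124 FPKM in the JJ012 control against 36.8 after melatonin, and 6.80 against 4.28 FPKM in 143B.

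None of the complement regulators passed the threshold in either line as deposited. CD46, CD55 and CD59 are surface proteins that protect host cells from complement, and they were well expressed in all libraries. CD46 had 19.6 FPKM in the JJ012 control and 25.5 FPKM after melatonin (5846 and 6388 counts), and 28.6 and 23.3 FPKM in 143B without and with melatonin (7049 and 6210 counts). CD55 had 6.32 FPKM in the JJ012 control and 8.99 FPKM after melatonin (1246 and 1489 counts), and 7.14 and 6.72 FPKM in 143B without and with melatonin (1163 and 1182 counts). CD59 had 20.7 FPKM in the JJ012 control and 18.0 FPKM after melatonin (4191 and 3069 counts), and 37.0 and 44.2 FPKM in 143B without and with melatonin (6199 and 8004 counts). Their log2 changes with melatonin lay between -0.28 and 0.45, and the order of the 4 libraries differed from gene to gene. With TPM, CD46 and CD55 passed the threshold in JJ012, at 0.65 and 0.76, and CD59 turned from -0.19 to 0.08.

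CLU encodes clusterin, a secreted chaperone that inhibits the lytic complex. It had 23.6 FPKM in the JJ012 control and 16.8 FPKM after melatonin (2850 and 1705 counts), and 1.58 and 2.22 FPKM in 143B without and with melatonin (158 and 239 counts), and its log2 fold changes of -0.47 and 0.32 had opposite signs and stayed below the threshold. SERPING1, the inhibitor of C1r and C1s, had 663 and 345 counts in JJ012 (log2 fold change -0.54) and 0 counts in both 143B libraries. By CPM the JJ012 control was at least 183-fold higher than the 143B control, with 143B set to the floor of 3 counts. CFI and VTN had at most 14 counts in any library. Summed over 7 genes, the regulators stood at 75.4 and 72.4 FPKM in JJ012 and at 74.5 and 76.5 FPKM in 143B.

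Among the coagulation factors, F3, which encodes tissue factor, the trigger of clotting, was higher in 143B. F3 (chr1:94529173-94541759) had 51.0 FPKM in the 143B control and 41.1 FPKM after melatonin (2340 and 2035 counts), against 6.09 and 4.06 FPKM in JJ012 (338 and 189 counts). The 143B control was 8.37-fold above the JJ012 control by CPM. Its log2 fold changes with melatonin were -0.49 in JJ012 and -0.31 in 143B, both short of the threshold.

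F8 encodes factor VIII, the cofactor under which factor X, the product of F10, is activated, and both genes were expressed in JJ012. F8 had 3.49 FPKM in the JJ012 control and 1.43 FPKM after melatonin (735 and 253 counts), and 0.11 and 0.12 FPKM in 143B without and with melatonin (20 and 22 counts). In JJ012 F8 fell by 0.89 on the log2 scale, and it overlaps FUNDC2 and F8A1 on the opposite strand. F10 had 10.01 FPKM in the JJ012 control and 7.08 FPKM after melatonin (456 and 271 counts), with a log2 change of -0.45 that stayed below the threshold, and 0 counts in 143B. F12 encodes the factor that starts the contact pathway, and it had 210 and 89 counts in JJ012, just short of the threshold at -0.57. VWF reached 61 counts and F5 at most 3.

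Among the anticoagulant genes were the 2 largest differences between the controls, those of TFPI2 (-6.07, JJ012 over 143B) and THBD (-5.56). THBD encodes thrombomodulin, which turns thrombin toward activating protein C. THBD (chr20:23045633-23049672) had 46.2 FPKM in the 143B control and 28.7 FPKM after melatonin (2965 and 1989 counts) and 0 counts in both JJ012 libraries. Its fall in 143B was -0.67 on the log2 scale, with a log2 CPM ratio of -0.69 (-0.77 to -0.60). TFPI2, a Kunitz inhibitor of plasmin and other serine proteases, had 66.3 FPKM in the 143B control and 88.6 FPKM after melatonin (2574 and 3718 counts), against 0 and 13 counts in JJ012. In 143B its log2 change was 0.41, below the threshold, and in JJ012 it was below the 1 FPKM filter in both libraries. By CPM the 143B control was at least 1200-fold above the JJ012 control for THBD and at least 1040-fold for TFPI2, with JJ012 set to the floor.

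PROS1 encodes protein S, the vitamin K-dependent cofactor of activated protein C. It had 64.6 FPKM in the JJ012 control and 42.4 FPKM after melatonin (6542 and 3606 counts), and 4.38 and 3.84 FPKM in 143B without and with melatonin (367 and 347 counts). The fall in JJ012 was -0.60 on the log2 scale, close to the threshold, and was not past it with TPM or TMM scaling. TFPI, the inhibitor of tissue factor, was expressed in both lines, with 10.8 FPKM in the JJ012 control and 8.60 FPKM after melatonin (2432 and 1626 counts), and 6.95 and 6.0 FPKM in 143B without and with melatonin (1294 and 1206 counts). SERPINA5, the protein C inhibitor, had 7.16 FPKM in the JJ012 control and 5.10 FPKM after melatonin (516 and 309 counts) and 0 counts in 143B. SERPIND1, which encodes heparin cofactor II, had 6.51 FPKM in the 143B control and 4.70 FPKM after melatonin (240 and 187 counts), and 1 and 3 counts in JJ012. It overlaps PI4KA on the opposite strand. None of these 3 genes (TFPI, SERPINA5 and SERPIND1) passed the threshold with melatonin, with log2 fold changes of -0.30 and -0.18 for TFPI, -0.42 for SERPINA5 in JJ012 and -0.40 for SERPIND1 in 143B.

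Of the 4 broad protease inhibitors, 3 were tested in JJ012 and all of these fell, a small number to set beside the 18.6% of all tested genes and 38.1% of extracellular ones that fell. SERPINE2, also called protease nexin-1, inhibits thrombin and urokinase and was the most abundant gene of the list in JJ012. SERPINE2 (chr2:223975045-224039318) had 151 FPKM in the JJ012 control and 86.7 FPKM after melatonin (25936 and 12538 counts), and 13.8 and 10.1 FPKM in 143B without and with melatonin (1962 and 1559 counts). Its log2 fold change was -0.79 in JJ012, which with TPM became -0.52, and -0.41 in 143B. SERPINA1 encodes alpha-1 antitrypsin, the inhibitor of neutrophil elastase. It had 4.91 FPKM in the JJ012 control and 1.57 FPKM after melatonin (463 and 124 counts), at -1.20 on the log2 scale, and 1.03 and 0.64 FPKM in 143B without and with melatonin (80 and 54 counts). SERPINF2 encodes the main inhibitor of plasmin, alpha-2 antiplasmin, and had 2.15 FPKM in the JJ012 control and 0.45 FPKM after melatonin (97 and 17 counts), at -1.12 on the log2 scale, and at most 2 counts in 143B. A2M encodes a trap for proteases of all classes. It had 333 and 222 counts in 143B (log2 fold change -0.50) and 82 and 20 counts in JJ012, where it stayed under 1 FPKM.

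In the plasminogen system the genes that passed the threshold rose in 143B (PLAU and PLAUR) and fell in JJ012 (PLAT). PLAU encodes urokinase, which activates plasminogen at the cell surface. PLAU (chr10:73909177-73917496) had 26.7 FPKM in the 143B control and 42.9 FPKM after melatonin (1253 and 2173 counts), with a log2 change of 0.66 and a log2 CPM ratio of 0.68 (0.58 to 0.78). In JJ012 it was scarce, with 24 and 16 counts. PLAUR encodes the receptor that holds urokinase on the membrane. PLAUR (chr19:43646095-43670547) had 64.2 FPKM in the 143B control and 112 FPKM after melatonin (4549 and 8534 counts), with a log2 change of 0.79 and a log2 CPM ratio of 0.80 (0.74 to 0.85). In JJ012 PLAUR had 25.7 and 19.8 FPKM (2200 and 1422 counts), with a log2 change of -0.36 that did not reach the threshold.

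PLAT encodes tissue plasminogen activator. It fell in JJ012, with 3.86 FPKM in the JJ012 control and 1.94 FPKM after melatonin (577 and 243 counts) and a log2 fold change of -0.73. In 143B it had 1.60 and 2.83 FPKM (197 and 378 counts), just short of the threshold at 0.56 and past it with TPM at 0.69. The summed level of PLAU, PLAUR and PLAT in 143B was 92.6 FPKM without melatonin and 157 FPKM with it.

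**Figure D2:**
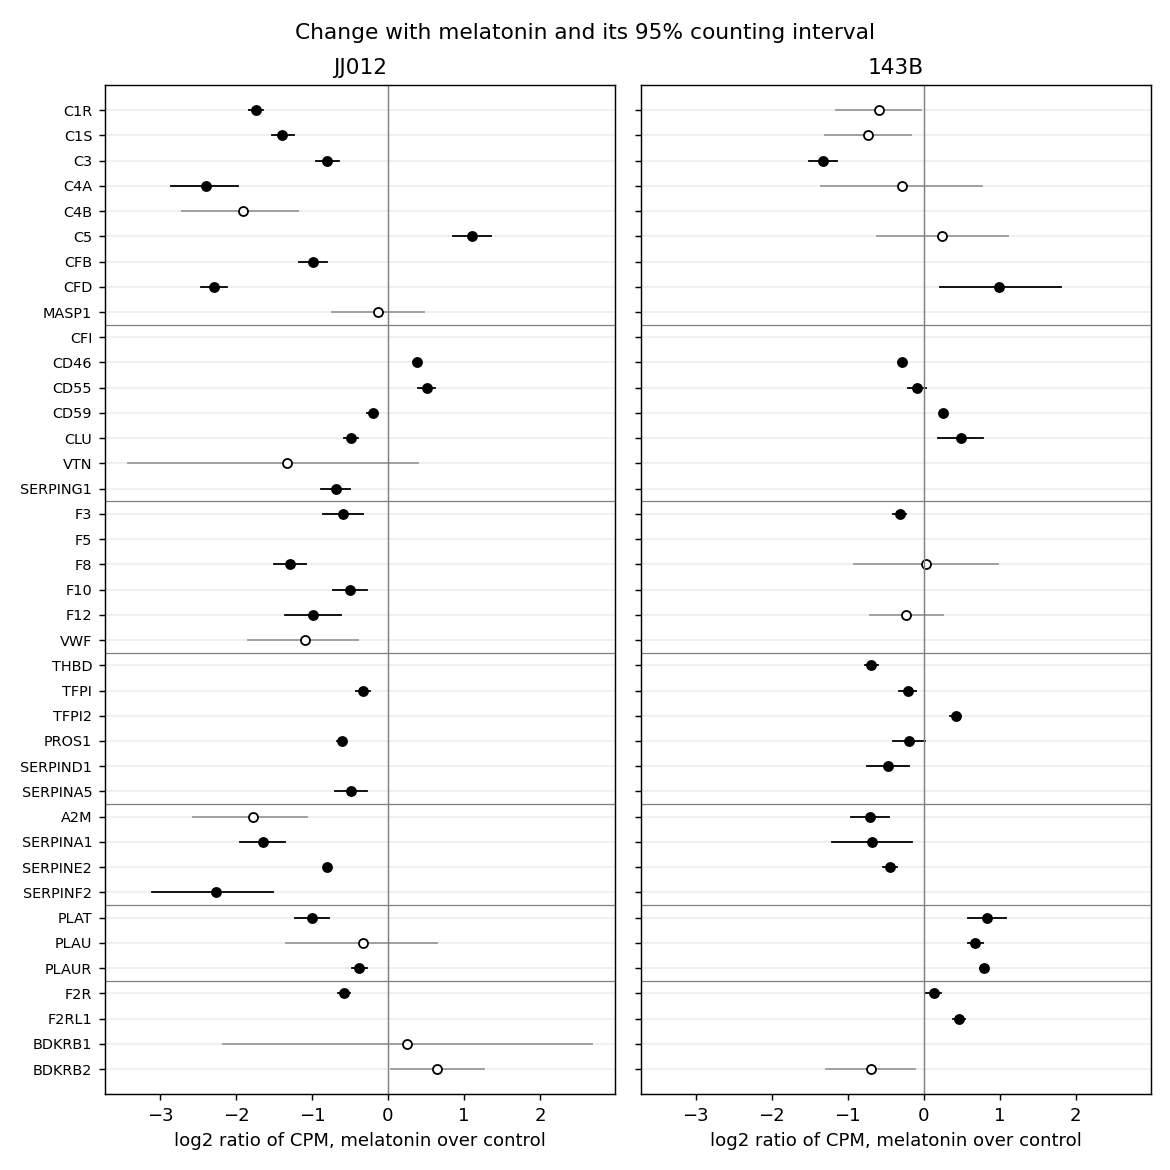
Log2 ratio of CPM, melatonin over control, with its exact 95% counting interval for each gene with more than 3 counts in both libraries of the line, filled where the gene passed the 1 FPKM filter and open where it did not. In JJ012 most filled points lie left of 0, with C5, CD46 and CD55 to the right. In 143B CFD lies farthest to the right, with a wide interval, and C3 farthest to the left. The filled points of PLAT, PLAU, PLAUR, CLU, F2RL1, TFPI2, CD59 and F2R also lie right of 0 there.

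Of the receptors for these proteases, F2R was expressed in both lines and F2RL1 almost only in 143B. F2R encodes the thrombin receptor PAR1. It had 48.3 FPKM in the JJ012 control and 32.4 FPKM after melatonin (3686 and 2076 counts), and 20.2 and 22.0 FPKM in 143B without and with melatonin (1274 and 1501 counts), with log2 fold changes of -0.56 and 0.12. F2RL1 encodes PAR2, which is cut by trypsin-like proteases and by the complex of tissue factor and factor VIIa. It had 44.6 FPKM in the 143B control and 61.3 FPKM after melatonin (2076 and 3082 counts) and 3 and 0 counts in JJ012. Its log2 fold change in 143B was 0.45, below the threshold, with a log2 CPM ratio of 0.46 (0.38 to 0.54). The genes of PAR1 and PAR2 lie 83.2 kb apart on chromosome 5. The bradykinin receptors BDKRB1 and BDKRB2 stayed under 1 FPKM in all libraries, with at most 4 and 64 counts.

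**Figure D3:**
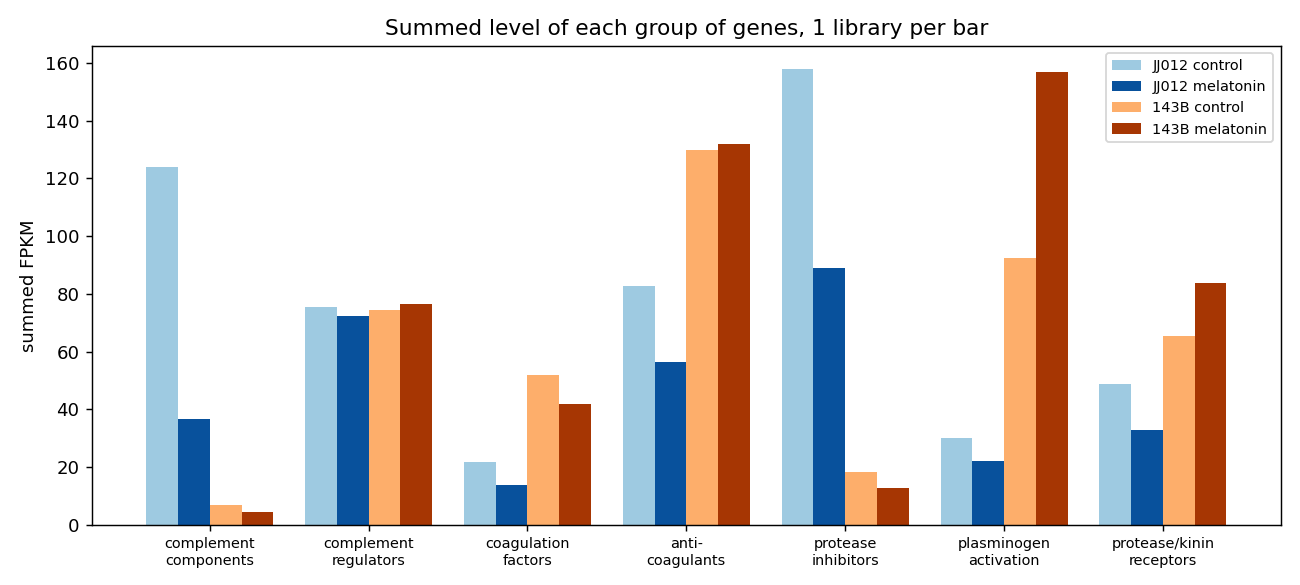
Summed FPKM of the genes in each group (9 complement components, 7 complement regulators, 6 coagulation factors, 6 anticoagulants, 4 protease inhibitors, 3 genes of plasminogen activation and 4 receptors), 1 library per bar. The complement components went from 124 to 36.8 FPKM in JJ012 and the regulators from 75.4 to 72.4 FPKM, while plasminogen activation went from 92.6 to 157 FPKM in 143B.

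In all, 27 genes are given above with their level in each library, by the rule of at least 5 FPKM in 1 library or a change past the threshold. The other 12 (C4B, C5, MASP1, CFI, VTN, SERPING1, F5, F12, VWF, A2M, BDKRB1 and BDKRB2) reached at most 4.77 FPKM and 663 counts in any library. C3, C4A and CFB overlap GPR108, STK19 and C2 on their own strand, and C1S, F12 and PLAU overlap LPCAT3, GRK6 and C10orf55 on the opposite strand. Since the strand setting of the counting is not given in the sources used here, reads of genes on opposite strands may not be told apart. By the filter of 1 FPKM, 14 of the 39 genes were tested in both lines, 11 in JJ012 alone, 6 in 143B alone and 8 in neither. Of the 14 tested in both, 6 had a log2 fold change below 0 in both lines, 6 were below 0 in JJ012 and above 0 in 143B, and 2 the reverse. The matching shares over all genes tested in both lines were not computed, so this split is not read as a trait of the list.

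All 12 genes that fell in JJ012 are annotated as extracellular, but so are 23 of the 25 tested genes, so the list largely set this outcome. CLU, which encodes a secreted chaperone, is not annotated as extracellular. By the Gene Ontology terms extracellular region or extracellular space in the deposited annotation, 34 of the 39 genes are extracellular. Of the 23 of these tested in JJ012, 12 fell. The same terms cover 1191 tested genes of JJ012, of which 38.1% fell and 10.1% rose, against 18.6% and 19.6% of all tested genes. The share of the list is thus to be read against 38.1%, and how far it comes from this wider group was not tested. In 143B, 6.86% of 1020 such genes fell and 6.37% rose.

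**Figure D4:**
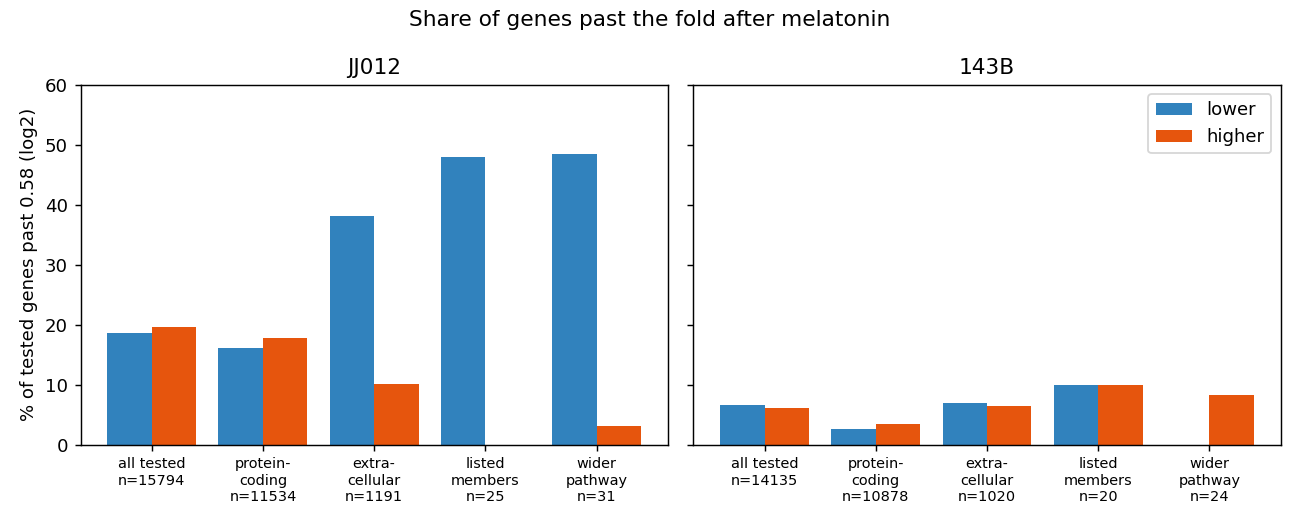
Share of tested genes past 0.58 on the log2 scale after melatonin, lower in blue and higher in orange, for all tested genes, protein-coding genes, genes annotated as extracellular, the listed genes and the wider pathway list, with the number tested under each pair of bars. In JJ012 the share that fell was 18.6% of all genes, 38.1% of extracellular genes and 48.0% of the listed genes.

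The change in JJ012 also varied with gene length. Across the 11534 protein-coding genes of JJ012 the Spearman correlation of the log2 change with exonic length was 0.40, with shorter genes lower. These genes share their libraries and are no replicates. With the running median over length subtracted, 16 of the 25 genes fell and none rose, the added ones being CLU, SERPING1, F12 and TFPI. Of all 15794 tested genes, 16.4% then fell and 18.1% rose. CFD, with 1818 exonic bases, went from -2.19 to -1.86, and C5, with 16890, went from 0.54 to 0.20. In 143B the correlation was -0.13, and PLAU and PLAUR still rose and C3 and THBD still fell after the subtraction.

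**Figure D5:**
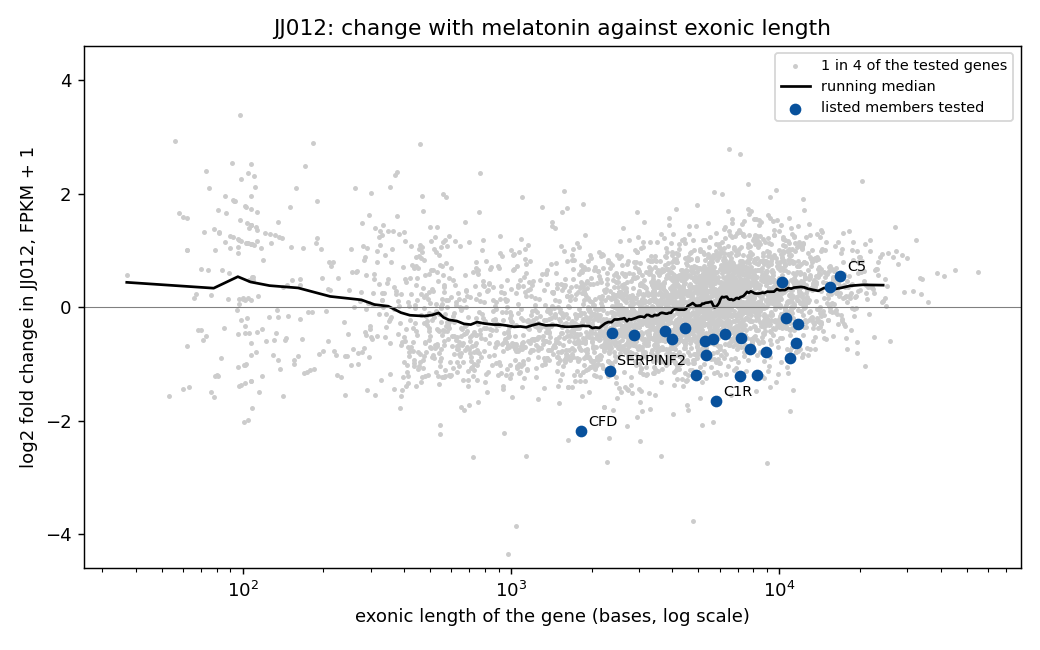
Log2 fold change in JJ012 on the FPKM + 1 scale against exonic length in bases on a log axis, with 1 in 4 of the tested genes in grey, the running median of all tested genes as a line, and the 25 tested genes of the list in blue. Most of the listed genes lie below the running median, with CFD lowest at -2.19.

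A wider list of 79 other genes of these cascades was examined in the same way. Like the members, it was chosen with earlier results of these data known, so it is no independent check. In JJ012, 31 were tested, of which 15 fell and 1 (ITGAX, a subunit of a complement receptor, named after its value was seen although it is under 5 FPKM) rose, beside 18.6% and 19.6% of all tested genes and 38.1% and 10.1% of extracellular ones. The largest falls with at least 5 FPKM were those of S100A10 and ANXA2, which form a plasminogen receptor at the cell surface, VKORC1, the reductase of the vitamin K cycle, PROC, which encodes protein C, and ENO1, a glycolytic enzyme that also binds plasminogen. S100A10 went from 247 to 57.0 FPKM (-2.10 on the log2 scale). VKORC1 went from 57.7 to 15.0 FPKM (-1.87 on the log2 scale). PROC went from 43.1 to 13.6 FPKM (-1.60). ANXA2 and ENO1 fell by 1.35 and 1.14 on the log2 scale. PROC and VKORC1 are linked to PROS1, which encodes the cofactor of activated protein C and is itself modified through vitamin K. The fall of PROS1 did not pass the threshold with TPM or TMM. Of the 9 coagulation genes of the wider list tested in JJ012, 4 fell. The other 5, among them GGCX, VKORC1L1 and PROCR, did not pass the threshold, so a joint change of these steps was not shown.

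In 143B, 24 of the wider list were tested, of which 2 rose (8.3%) and none fell, with 6.09% and 6.65% of all tested genes as background, so the share that rose was near that of all genes. SERPINB2, which encodes an inhibitor of urokinase and is likewise named although it stayed under 5 FPKM, went from 9 to 90 counts in 143B, a log2 CPM ratio of 3.21 (2.22 to 4.39). Of the genes that the deposited annotation puts in the KEGG pathway of these cascades and neither list holds, 7 were tested in each line, with 1 fall and 1 rise in JJ012 and none of either in 143B.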

How the data were processed

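RNA of the 4 libraries was measured by paired-end poly(A) sequencing (2 × 150 bp). Per the submitters' processing notes the tools were cutadapt 1.9.1, HISAT2 2.2.1, HTSeq 0.6.1 and DESeq2 on hg38. The annotation release and strand setting are not given in the sources used here. Counts were deposited by the authors as whole numbers for each gene, not normalized, together with FPKM, which equal the counts divided by exonic length and library total. Positions are those of the deposited table (hg38).

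Fold changes were computed from FPKM with a pseudocount of 1, a filter of 1 FPKM reached in one or both libraries and a threshold of 0.58. CPM ratios have exact (Clopper-Pearson) 95% intervals, which cover counting error only. A library at 0 counts was set to a floor of 3 counts, between 0.156 and 0.189 CPM. With 1 library per group, a count model has no replicates and was not fitted. Genes given in full are those with at least 5 FPKM in a library or past the threshold, and at most 5 genes of the wider list per comparison. The values of 1 gene of the wider list are not reported here. The members and lists were chosen with earlier results of these data known. In all, 10 alternatives were planned, and protein-coding and extracellular genes (GENCODE 29 types, Gene Ontology) were added as backgrounds after seeing the data. Functions were tested on simulated data. Python 3.11.15, numpy 2.4.6, scipy 1.17.1, pandas 2.3.3, R 4.3.3 and edgeR 4.0.16 (TMM factors) were used.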

Additional observations from a re-analysis of the deposited data

Results flagged for a closer look

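For 3 genes the change with melatonin had opposite signs in the lines, both with counting intervals that exclude 0, and passed the threshold in one line. The difference between the lines itself was not tested, since each line has 1 library per condition. How many of all genes show the same pattern was not counted. CFD stood at -2.19 on the log2 scale in JJ012 and 0.50 in 143B, a difference of -2.69 between JJ012 and 143B. The value in 143B rests on 21 and 45 counts. PLAT had -0.73 in JJ012 and 0.56 in 143B, a difference of -1.29. PLAUR had -0.36 in JJ012 and 0.79 in 143B, a difference of -1.15. The level of the PLAUR gene was higher in 143B than in JJ012 in both conditions, and that of PLAT was higher in JJ012 in the controls and higher in 143B after melatonin.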

How the results depend on the processing

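The counts of listed genes depended on the threshold, on the treatment of low genes and on the scale. The shares over all genes changed as well and are given beside the counts. With a pseudocount of 0.1 FPKM, 1 of 25 genes rose in JJ012 (24.5% of all genes). In 143B 4 of 20 rose and 4 fell (10.7% and 10.1% of all genes), and 4 genes of the wider list passed. With a filter of 5 FPKM, which tests fewer genes, 6 of 16 fell in JJ012 (17.7% of all genes) and 1 of 13 in 143B (3.76%). In 143B 1 gene of the wider list then passed. Between the controls, 10 of 21 were higher in JJ012 than in 143B (40.5% of all genes). With TPM, 4 of 32 rose in JJ012 (33.0% of all genes) and the median of the list there was -0.39. In 143B 4 of 24 rose and 4 fell (13.2% and 15.5% of all genes), and 4 of the wider list passed. With CPM, 1 of 31 rose in JJ012 (19.5% of all genes). In 143B 4 of 27 rose (7.36% of all genes) and 5 of the wider list passed. With a threshold of 1, 6 of 25 listed genes and 9 of the wider list remained in JJ012, all lower for the former (6.88% of all genes fell). In 143B 0 of 20 rose and 0 fell (1.71% and 2.74% of all genes), with 1 of the wider list. PLAU, PLAUR and THBD in 143B stayed past 0.58 in the 9 settings that kept this threshold. In JJ012, between 10 and 17 listed genes fell under the scalings TPM, TMM, median of ratios and CPM, centring and the removal of the length trend. Between 25 and 32 listed genes were tested there, and between 15.7% and 23.2% of all tested genes fell. For the genes given in full, 305 of the single fold changes recomputed moved by no more than 0.5 of the width of their counting interval and 52 by more, and no gene past the threshold changed sign. No paired analysis was possible because each group has 1 library, and for the same reason none could be left out. With totals of 15889564 to 19218343 counts, the counting intervals of VTN, F5 and BDKRB1, with at most 12 counts, spanned 0 in both lines, so no change was detectable at this depth.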
